A study of Mus musculus with 6 samples.

Results

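The Eya, Six-family and Dach genes form a small regulatory network, and 9 of them were followed here, chosen by symbol from 55471 gene identifiers: Eya1, Eya2, Eya3, Eya4, Six2, Six3, Six4, Six5 and Dach1. These are 4 of 4 Eya genes, 4 of 6 Six-family genes and 1 of 2 Dach genes in the annotation. Their RNA was counted in mouse epiblast stem cells, pluripotent cells that resemble the epiblast at gastrulation, after 2 days of differentiation in serum as embryoid bodies. The 6 libraries form 2 groups of 3. The cells labelled Mixl1 KO are a knockout of Mixl1, which encodes a paired-class homeobox factor of the primitive streak. The cells labelled Mixl1 induced D1Dox are a line with inducible Mixl1 given doxycycline at 1 µg/mL during the last 24 h. Which part of Mixl1 the knockout lacks, whether knockout cells received doxycycline, whether each line is 1 clone and whether both lines share a parent are not stated in the labels. The line, its Mixl1 level and the drug therefore cannot be told apart. All cells had been kept on irradiated mouse embryonic fibroblasts.

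The 9 genes were chosen with their difference between the groups already known, so that difference is given as a description and without p-values. Where any of the 9 is said to be past a threshold, this describes the fit across all genes and is not evidence for a difference. Genes that were not among the 9 are given with a test or, for some, by level, reads or fold change alone. Bulk RNA does not separate fewer cells of a type from less RNA per cell.

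EYA proteins carry no DNA-binding domain of their own. They enter the nucleus with SIX-family proteins, which bind DNA through a homeodomain and a neighbouring SIX-type domain, and they act as coactivators and as protein tyrosine phosphatases. DACH proteins, relatives of SKI, act in the same complexes, largely as corepressors. With PAX factors, often upstream, the network is known for the eye, ear, cranial placodes, kidney and skeletal muscle.

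Libraries held 17490426 to 21026423 reads on genes. Mixl1 was at 39.8 ± 2.96 CPM (counts per 1e+06 reads of all tested genes, libraries scaled by TMM; SD, n = 3) in the knockout group and at 432.5 ± 7.54 CPM (SD, n = 3) in the induced group. Counts over a whole gene do not say which of its exons the reads in knockout libraries cover. All 7 epiblast markers passed the filter on low counts, and 4 were higher and 3 lower in the induced group (edgeR, threshold below). Of these, all named after their values were seen, Nanog fell from 161.3 to 53.5 CPM between the group means (edgeR, adjusted p = 1.63e-16). Pou5f1 fell from 1293.8 to 807.1 CPM (edgeR, adjusted p = 1.42e-11). Sox2 rose from 51.7 to 187.6 CPM (edgeR, adjusted p = 6.32e-18). Fgf5 rose from 19.5 to 59.4 CPM, Otx2 from 15.2 to 38.5 CPM and Utf1 from 12.8 to 18.9 CPM. Dnmt3b fell from 228.3 to 158.7 CPM. The 7 summed to 1713.1 to 1846.6 CPM in the knockout and 1301.5 to 1337.4 CPM in the induced libraries. Most of that sum was Pou5f1, so the sum does not describe the 7 markers alike. Macrophage markers were also present, with summed levels of 301.0 to 435.4 CPM in the knockout and 44.1 to 54.9 CPM in the induced libraries. Markers of fibroblasts, the feeder cells, summed to 514.7 to 674.9 and 420.4 to 582.3 CPM. The labels do not say that replicates came from separate cultures, so errors and p-values measure the spread between these libraries, which may be technical.

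Of the 9 genes, 8 passed the filter on low counts, and Six3 did not. In the fit across all genes, 5 of the 8 were past an adjusted p of 0.05 in the direction of a higher level in the induced group and 2 in the direction of a lower level (edgeR quasi-likelihood test). Over all 15091 genes tested, 62.6% were past that threshold, 31.0% higher and 31.6% lower. Since the genes were chosen with this contrast known, nothing is read from their count. The median log2 fold change, induced over knockout, was 0.58 for the 8 genes and 0.0038 for all genes tested. The 5 higher genes were Eya2, Dach1, Eya1, Eya4 and Six2, and the 2 lower ones were Eya3 and Six4. Six5 did not pass. For 6 of the 8, no library of one group lay within the range of the other, against 67.1% of all genes tested, and nothing is read from that count either. The plot of levels by library shows each gene.

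**Figure D1:**
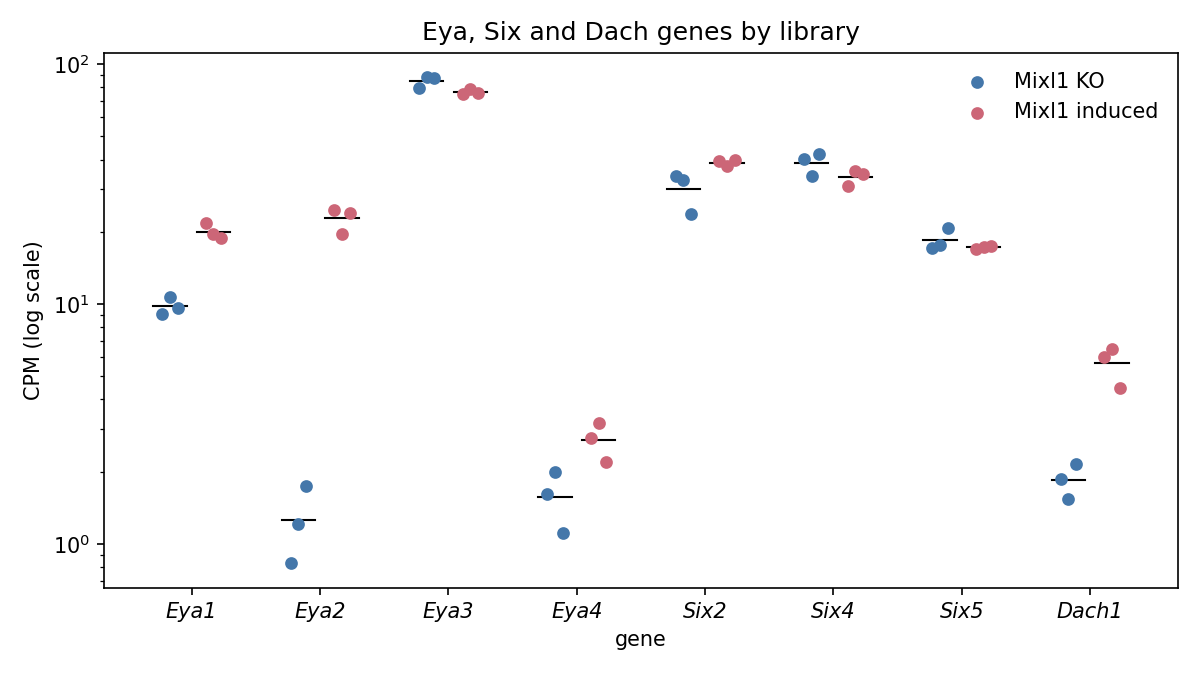
Level of 8 Eya, Six-family and Dach genes in CPM on a log axis, with 1 point per library (3 Mixl1 KO, 3 Mixl1 induced) and a black bar at each group's mean. Eya2 moves from 1.26 to 22.7 CPM and Dach1 from 1.85 to 5.65 CPM, while Eya3, Six4 and Six5 sit at similar levels in both groups; Six3, with no reads in some libraries, is not drawn.

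Eya2 had the largest difference of the 8 genes. The gene spans chr2:165595032-165771727 of mm10 on the plus strand and encodes a coactivator found in placodes and developing muscle. Knockout replicates 1, 2 and 3 held 17, 22 and 33 reads of Eya2, and induced replicates 1, 2 and 3 held 513, 341 and 438. All induced libraries were far above all knockout libraries. The means were 1.26 ± 0.456 and 22.7 ± 2.82 CPM (SD, n = 3 each). The log2 fold change was 4.18 (SE 0.17), an 18.1-fold difference. A total of 99.45% of tested genes had a lower log2 fold change.

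Eya1 was 2.06-fold higher in the induced group. It lies at chr1:14168954-14310235 on the minus strand, and its loss in people and mice affects ear, kidney and branchial arch. The knockout libraries held 186, 194 and 182 reads and the induced libraries 452, 341 and 345. The means were 9.78 ± 0.827 and 20.0 ± 1.55 CPM (SD, n = 3 each), and the log2 fold change was 1.04 (SE 0.097). The groups did not overlap, and replicates of a group lay close together.

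Eya4 was low throughout. The gene lies at chr10:23102963-23350786 on the minus strand and is known from inherited deafness. The knockout libraries held 33, 36 and 21 reads and the induced libraries 57, 56 and 40. The lowest induced library, at 2.18 CPM, stood just above the highest knockout library, at 1.98 CPM. The log2 fold change was 0.79 (SE 0.23), so its size is loosely known.

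Eya3, at chr4:132638987-132724765 on the plus strand, was the most abundant Eya gene and differed little, by 1.11-fold. The knockout libraries held 1636, 1598 and 1669 reads and the induced libraries 1563, 1374 and 1388. The means were 85.2 ± 4.70 and 76.6 ± 1.71 CPM (SD, n = 3 each), a log2 fold change of -0.15 (SE 0.053). The groups did not overlap, but the lowest knockout library, at 79.8 CPM, was close to the highest induced one, at 78.5 CPM. Eya3 was no longer past the threshold without knockout replicate 2 or without induced replicate 1.

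Per length, the summed level of the Eya genes was higher in the induced group, and their make-up differed. RPKM divides CPM by the length of all annotated exons in kilobases, and the 4 Eya genes summed to 16.9 ± 1.03 RPKM in knockout and 24.1 ± 0.732 RPKM in induced libraries (SD, n = 3 each). Eya3 held 89.1 ± 0.555% of that sum in knockout and 56.4 ± 2.96% in induced libraries. The share of Eya2 was 2.49 ± 0.799% in the first and 31.8 ± 3.10% in the second. Eya1 held 7.39% and 10.7%, and Eya4 0.985% and 1.20%. With the length of the longest transcript in place of all exons, Eya3 held 84.4% in knockout and 50.8% in induced libraries, Eya1 11.5% and 15.8%, Eya2 2.60% and 31.7%, and Eya4 1.52% and 1.76%. With either length Eya3 was the largest component in both groups, followed by Eya1 in knockout and by Eya2 in induced libraries.

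**Figure D2:**
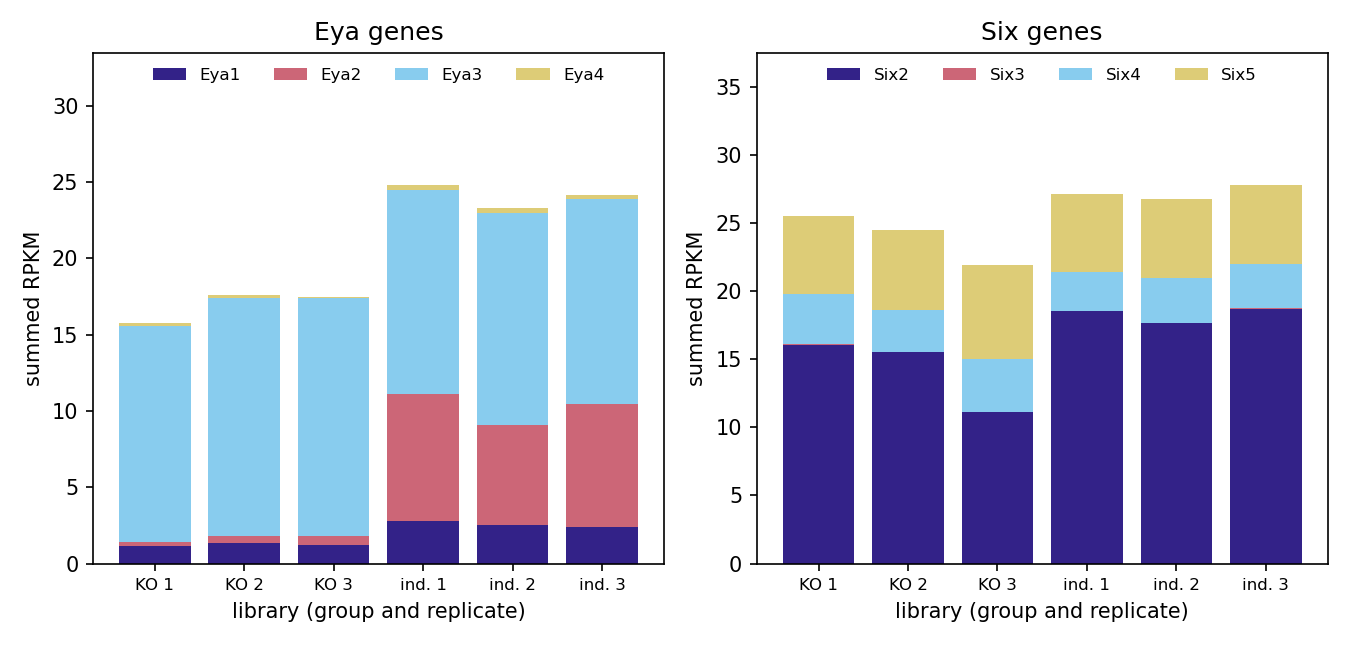
Summed RPKM of the Eya genes (left) and of Six2, Six3, Six4 and Six5 (right) in each library, with bar segments for each gene. The Eya sum goes from 16.9 to 24.1 RPKM between the group means with a segment of Eya2 that is thin in knockout libraries, and the Six-family sum goes from 24.0 to 27.2 RPKM with Six2 the largest segment in every library.

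Six2, which keeps nephron progenitors of the kidney undifferentiated, was the most abundant Six-family gene per length. It lies at chr17:85684277-85688274 on the minus strand. The knockout libraries held 698, 596 and 449 reads and the induced libraries 814, 655 and 726. In CPM these were 34.1, 32.8 and 23.6 against 39.2, 37.4 and 39.6. Knockout replicate 3 stood below the other two of its group, and the groups did not overlap. The log2 fold change was 0.36 (SE 0.11), and Six2 was no longer past the threshold without induced replicate 3. Without knockout replicate 3 the log2 fold change was 0.21. Tested genes of chromosome 17 had a median log2 fold change of -0.13.

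Summed fibroblast markers were also lowest among the knockout libraries in replicate 3, at 514.7 CPM against 600.9 and 674.9. Among the induced libraries they were lowest in replicate 3, at 420.4 CPM, where Six2 was highest. Of these 9 markers, 3 were higher and 5 lower in the induced group, and none was at 0 in all libraries. Their part in the Six2 values was not tested.

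Six4 and Six5 differed little between the groups. Six4, which acts in muscle formation, lies at chr12:73099609-73113456 on the minus strand. Its reads were 825, 617 and 803 in knockout and 646, 627 and 638 in induced libraries. The groups overlapped, since knockout replicate 2, at 34.0 CPM, lay within the induced range of 31.1 to 35.8 CPM. The log2 fold change was -0.20 (SE 0.079). Six4 was no longer past the threshold without knockout replicate 1 or 3, without induced replicate 1, or with DESeq2 as the test.

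Six5, whose human counterpart neighbours the repeat that causes myotonic dystrophy, lies at chr7:19094594-19098549 on the plus strand. Its reads were 350, 318 and 394 in knockout and 353, 302 and 319 in induced libraries. The log2 fold change was -0.10 (SE 0.089), and the groups overlapped. The 95% interval of the log2 fold change ran from -0.27 to 0.08.

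Six3, a regulator of forebrain and eye at chr17:85613608-85629302 on the plus strand, was close to undetected. It had 2, 0 and 0 reads in knockout and 4, 2 and 4 reads in induced libraries. The ratio of the groups, 5.10 higher in the induced group, had a 95% counting interval of 1.09 to 47.8. Six3os1, an antisense transcript that overlaps Six3 on the other strand by 106 exonic bases, had 1, 0 and 0 reads and 4, 2 and 7 reads. Its ratio was 13.2 with a counting interval of 1.99 to 563.1. The library protocol keeps strand, and reads on the strand opposite to Six3 numbered 0 in all libraries together. For the other 8 genes such reads numbered 0 to 9 in all.

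Per length, the 4 Six-family genes summed to 24.0 ± 1.82 RPKM in knockout and 27.2 ± 0.520 RPKM in induced libraries (SD, n = 3 each). Six2 held 59.1 ± 7.16% of the sum in knockout and 67.3 ± 1.15% in induced libraries. The make-up of the Six-family pool therefore moved by less than that of the Eya pool, a difference that was not tested.

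Dach1, the corepressor gene of the set, was 3.04-fold higher in the induced group. It spans chr14:97786853-98169765 on the minus strand. The knockout libraries held 38, 28 and 41 reads and the induced libraries 125, 113 and 82. The means were 1.85 ± 0.308 and 5.65 ± 1.04 CPM (SD, n = 3 each), and the log2 fold change was 1.60 (SE 0.19). The groups did not overlap, and the lowest induced library, at 4.48 CPM, was above the highest knockout library, at 2.16 CPM.

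**Figure D3:**
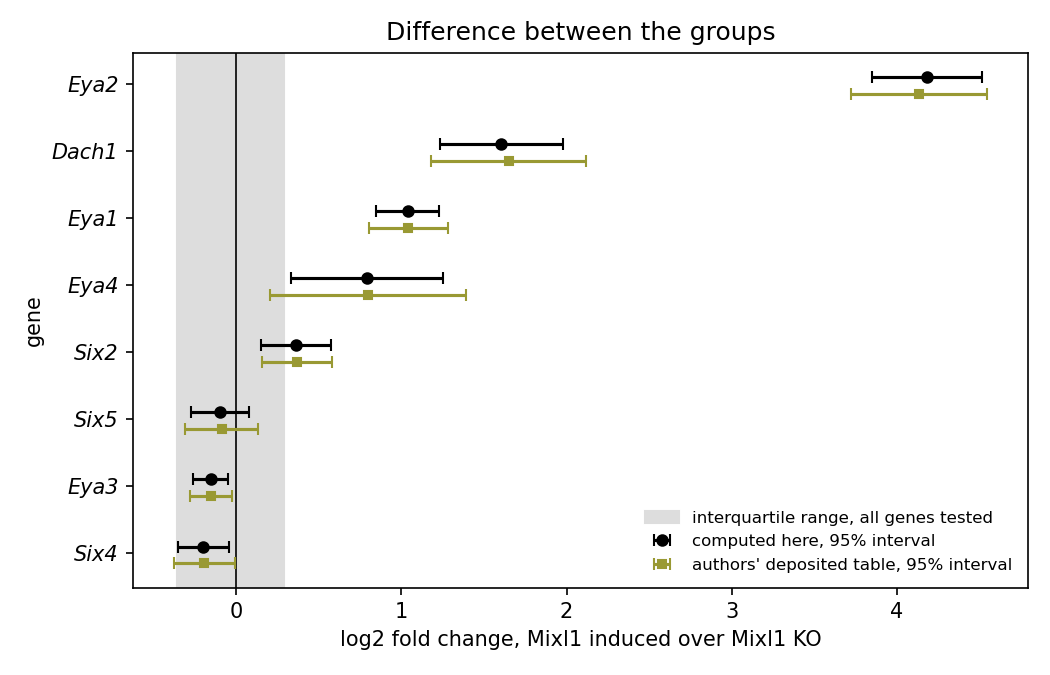
Log2 fold change, induced over knockout, of 8 genes as computed here (circles) and in the authors' deposited table (squares), with 95% intervals as bars and the interquartile range of all tested genes, from -0.36 to 0.29, in grey. In the values computed here, Eya2, Dach1, Eya1 and Eya4 have intervals to the right of the grey band, and Six5, Eya3 and Six4 have point estimates inside it.

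Values in the authors' deposited table, which does not separate the strands, were close to these. There Eya2 had a log2 fold change of 4.13 (SE 0.21), Dach1 of 1.65 (SE 0.24), Eya1 of 1.04 (SE 0.12) and Six2 of 0.37 (SE 0.11). For Six3 the authors' deposited table gives 2.38 with a standard error of 1.51.

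In order of level per length, the knockout group ran from Eya3 (15.1 ± 0.833 RPKM) and Six2 (14.2 ± 2.69), whose ranges overlapped, to Six5 (6.13), Six4 (3.58) and Eya1 (1.25; SD over n = 3 throughout). Below these came Eya2 (0.425 RPKM) and Dach1 (0.253), whose ranges overlapped too, Eya4 (0.166) and Six3 (0.0060). In the induced group the order of RPKM was Six2 (18.3 ± 0.557), Eya3 (13.6 ± 0.303), Eya2 (7.67 ± 0.953), Six5 (5.73), Six4 (3.13), Eya1 (2.57), Dach1 (0.773), Eya4 (0.288) and Six3 (0.032). No neighbours in the induced order overlapped. With the length of the longest transcript in place of all exons the order was the same, but Six5 and Six4, and Dach1 and Eya4, overlapped in the knockout group, and Six4 and Eya1 in the induced group.

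Annotated genes that overlap the 9 genes contributed almost no reads. There were 14 of them, none passed the filter, and 12 had no read in any library. Besides Six3os1, the pseudogene Gm11460 within Eya2 had 1 read.

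RefSeq promoters of GRCm38.p6, from 250 bases before to 50 after a gene's start, were at hand for 7 of the 9 genes, with 9 start sites in all. Eya1 and Eya2 had no entry. CpG dinucleotides per promoter numbered 13 to 37 at these sites, against a median of 7 over 32817 promoters, so all 9 were above it. G and C made up as much as 69.3% of bases, against a median of 52.7%, and were below that median at Six3 and above it at the other sites.

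The sites searched, on both strands, were TAATTA, a homeodomain core, TAATNNNATTA, the spaced palindrome of paired-class homeodomains, TGATAC, a core bound by SIX-family proteins, and TCAGGTT, part of the MEF3 site of muscle genes that SIX-family proteins bind. TAATTA and TGATAC matched none of the 9 promoters, and matched 5.30% and 5.46% of all promoters. TAATNNNATTA was found in 1 of the 9, that of Six2, from position -45 relative to the start, and in 0.484% of all promoters. TCAGGTT was found in 1 of the 9, at 1 of the 2 starts of Six4, from position -97, and in 4.07% of all promoters. The motifs do not overlap each other in these promoters, and a match is a run of letters only. The promoters of Six2 and Six4 are shown for these matches, in capitals, and that of Dach1 as the one with the largest fold change among genes that have an entry and passed the filter on low counts, with no match. They lie at chr17:85688205-85688504, chr12:73113196-73113495 and chr14:98169716-98170015, all on the minus strand and written in the direction of the gene.
Six2: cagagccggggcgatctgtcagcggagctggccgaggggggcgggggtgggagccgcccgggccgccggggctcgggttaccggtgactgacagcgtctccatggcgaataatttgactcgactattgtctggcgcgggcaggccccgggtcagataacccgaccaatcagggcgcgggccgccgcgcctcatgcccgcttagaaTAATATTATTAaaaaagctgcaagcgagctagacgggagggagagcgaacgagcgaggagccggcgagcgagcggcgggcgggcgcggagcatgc
Six4: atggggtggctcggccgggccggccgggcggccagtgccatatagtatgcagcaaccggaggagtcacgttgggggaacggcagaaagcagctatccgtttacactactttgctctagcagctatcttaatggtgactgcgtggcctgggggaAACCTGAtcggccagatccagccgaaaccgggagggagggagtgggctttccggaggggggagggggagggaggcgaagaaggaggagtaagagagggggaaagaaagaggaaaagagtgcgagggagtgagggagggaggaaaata
Dach1: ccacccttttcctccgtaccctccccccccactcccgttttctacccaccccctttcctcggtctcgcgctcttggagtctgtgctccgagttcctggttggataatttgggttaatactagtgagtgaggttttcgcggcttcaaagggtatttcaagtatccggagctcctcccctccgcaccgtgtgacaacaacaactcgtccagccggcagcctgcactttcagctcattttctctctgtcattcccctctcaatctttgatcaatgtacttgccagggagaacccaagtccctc

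Other genes of these families were low in both groups. Six6, an eye and pituitary gene, had no read in the knockout libraries and 3, 7 and 7 in the induced ones. Taking 3 reads over the knockout group as the limit that a count of 0 allows, Six6 was at least 5.78-fold higher in the induced group. That bound takes the 17 induced reads as exact, and the lower end of the 95% counting interval of the ratio was 4.21. Dach2 did not pass the filter, with 7, 5 and 9 reads against 15, 8 and 17, and its groups overlapped.

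Of the other network genes listed, 48 in all, 36 were tested, and 13 rose and 11 fell, against 31.0% and 31.6% of all genes tested. Their median log2 fold change was 0.11. These lists are reports from other tissues and were drawn up with earlier results of these data known.

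Among the 9 Pax genes, 5 were tested, 2 rose and none fell. The median log2 fold change was 0.48. Pax8, a kidney and thyroid regulator, had 4, 3 and 3 reads in knockout and 71, 45 and 72 in induced libraries (log2 fold change 4.21, SE 0.34; edgeR, adjusted p = 3.54e-10). Pax7, a regulator of muscle stem cells and neural crest, had 4, 6 and 8 reads against 38, 31 and 22 (log2 fold change 2.34, SE 0.35; edgeR, adjusted p = 5.65e-06). Pax2, Pax3 and Pax6, named after their values were seen, did not pass; their log2 fold changes were 0.48, 0.28 and 0.10. Pax4, also named after its values were seen, had no read in any library.

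Of 18 genes for proteins that act with EYA, SIX-family or DACH proteins, all were tested, 4 rose and 6 fell, with a median log2 fold change of 0.03. The Groucho corepressor genes went both ways. Tle3 rose from 124.9 ± 3.59 to 237.8 ± 1.54 CPM (SD, n = 3 each; edgeR, adjusted p = 4.42e-14), while Tle1 fell from 86.3 ± 4.54 to 45.4 ± 1.55 CPM (edgeR, adjusted p = 2.94e-12). The other two were named after their values were seen: Tle2 fell by 0.66 on the log2 scale (edgeR, adjusted p = 0.0166), and Tle4 did not pass, with a log2 fold change of 0.01. Aes, which encodes a short relative of the Groucho proteins, fell by 0.38 on the log2 scale (SE 0.053; edgeR, adjusted p = 2.03e-06). H2afx encodes H2AX, a histone whose phosphotyrosine EYA phosphatases remove, and it fell by 0.38 on the log2 scale (SE 0.043; edgeR, adjusted p = 9.78e-08).

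Of 18 genes reported elsewhere as targets of the network, 12 were tested, 6 rose and 5 fell. The median log2 fold change was 0.36. Sall1, a zinc-finger gene of kidney mesenchyme, rose from 121.5 ± 7.69 to 249.5 ± 7.62 CPM (SD, n = 3 each; edgeR, adjusted p = 4.81e-14). Ret, the receptor gene for GDNF, had a log2 fold change of 2.27 (SE 0.21; edgeR, adjusted p = 3.7e-09), and Neurog1, of cranial sensory neurons, one of 2.46 (SE 0.40; edgeR, adjusted p = 1.44e-05). Gdnf, the ligand gene of Ret, named after its values were seen, had 28, 18 and 17 reads in knockout and 6, 3 and 6 in induced libraries, and fell by 2.01 on the log2 scale (SE 0.39; edgeR, adjusted p = 0.000108). Wnt8b, a Wnt ligand gene named likewise, fell by 1.82 on the log2 scale (SE 0.42; edgeR, adjusted p = 0.000658). Wnt1, the other Wnt ligand gene of this list and named likewise, rose by 1.22 (SE 0.21, edgeR, adjusted p = 2.84e-05). The ion cotransporter gene Slc12a2 fell by 0.62 on the log2 scale (SE 0.065; edgeR, adjusted p = 3.25e-08). The muscle genes Myog, Myod1 and Myf5, named after their values were seen, were not tested, with 10, 3 and 8 reads in the knockout group and 3, 2 and 3 in the induced group.

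**Figure D4:**
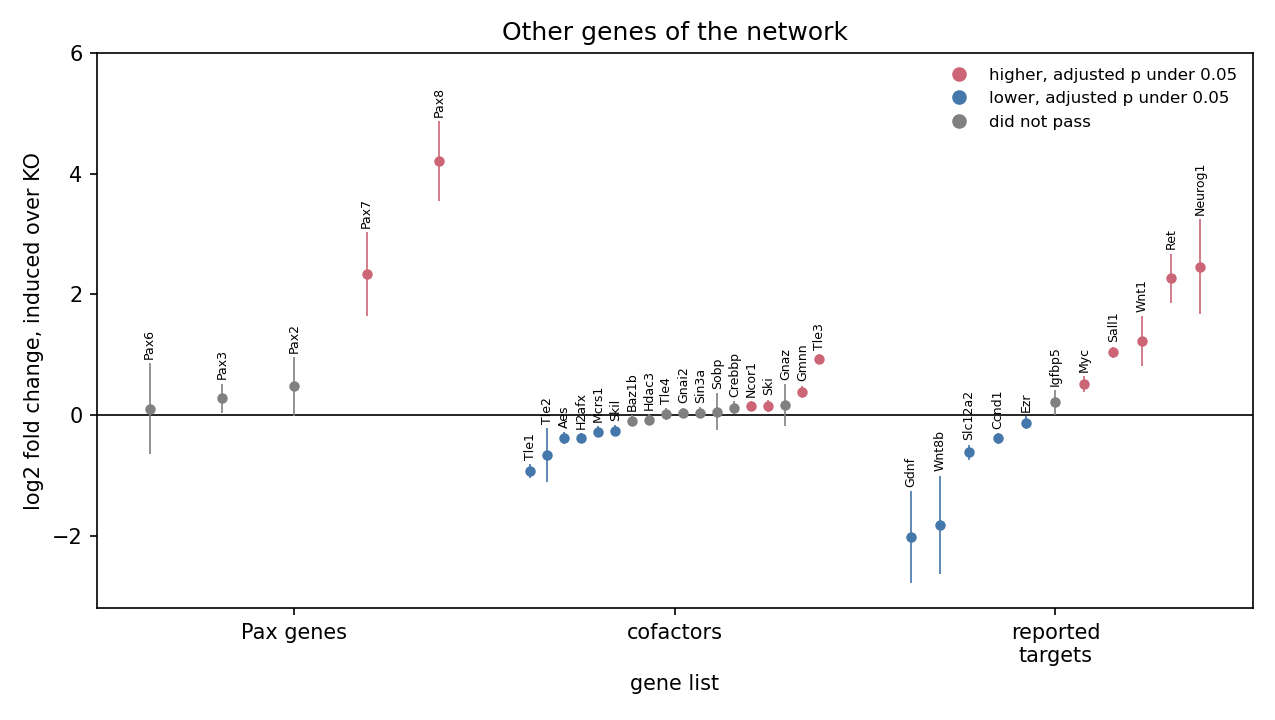
Log2 fold change, induced over knockout, with 95% intervals as bars, of 34 of the 36 tested network genes outside the 9, by list; red points rose, blue points fell and grey points did not pass an adjusted p of 0.05. Pax8 at 4.21 and Neurog1 at 2.46 are the highest of their lists, and the cofactor genes lie between Tle1 at -0.93 and Tle3 at 0.93.

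Markers of the tissues in which the network is known moved in different ways. Of 7 preplacodal markers, 6 were tested, 4 rose and 2 fell, and their summed level was 18.9 to 22.7 CPM in knockout and 58.0 to 64.9 CPM in induced libraries. Gata3 alone went from 2.87 to 40.7 CPM between the group means, while Foxi3, named after its values were seen, fell from 14.6 to 8.09 CPM (edgeR, adjusted p = 9.88e-06). Without Gata3, an alternative added after seeing the data, the sum was 16.9 to 19.5 CPM in knockout and 18.5 to 22.7 CPM in induced libraries, and the groups overlapped. The other preplacodal markers past the threshold were also named after their values were seen. Between the group means, Tfap2a rose from 1.22 to 6.26 CPM, Irx1 from 0.611 to 3.65 CPM and Dlx6 from 0.212 to 0.807 CPM. Dlx3 fell from 1.49 to 0.678 CPM. Of 6 nephric markers, 5 were tested and 3 rose, with sums of 135.7 to 149.8 and 321.5 to 344.0 CPM. Most of that sum was Sall1. Among genes of early kidney mesoderm in this list, named after their values were seen, Lhx1 rose from 15.6 to 76.3 CPM (log2 fold change 2.29; edgeR, adjusted p = 2.94e-13), Pax8 rose as given with the Pax genes, and Osr1 was not tested, with 9, 4 and 1 reads in knockout and 7, 4 and 4 in induced libraries. Of 7 eye field markers, 3 were tested and 1 rose, with sums of 1.43 to 2.10 and 4.63 to 5.08 CPM. Of 8 somite and muscle markers, 6 were tested, 2 rose and 3 fell, with sums of 34.1 to 35.6 and 23.5 to 29.4 CPM. Among these, named after their values were seen, Meox1 fell from 13.2 to 1.29 CPM. Tbx6 fell from 12.3 to 8.12 CPM and Tcf15 from 2.42 to 1.02 CPM. Foxc2 rose from 0.358 to 5.31 CPM, and Pax7 rose as given with the Pax genes. Of 5 neural crest markers, all were tested, 2 rose and 2 fell, with sums of 53.6 to 56.1 and 53.0 to 59.7 CPM. In this list, named likewise, Foxd3 rose from 0.921 to 18.5 CPM and Twist1 from 18.7 to 22.5 CPM. Ets1 fell from 28.4 to 10.2 CPM and Sox10 from 4.47 to 3.39 CPM. All 6 macrophage markers fell. None of these markers was at 0 in all libraries, and their part in the values of the 9 genes was not tested.

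The profile of Eya2 over the 6 libraries was compared with that of every other protein-coding gene tested, as the Euclidean distance between log2 CPM values centred on each gene's mean. The nearest were Alk, a receptor tyrosine kinase gene, at a distance of 0.33, Gata3, a zinc-finger factor gene that is also among the preplacodal markers, at 0.50, and Nr0b1, an orphan nuclear receptor gene, at 0.58. With only 2 groups, such closeness rests mainly on the size of the difference between them. The log2 fold changes of Alk, Gata3 and Nr0b1 were 4.43, 3.83 and 5.60. The log2 CPM values used for the distance include a prior count of 2, which shrinks differences at low counts. Knockout libraries held 4, 4 and 8 reads of Alk and 1, 1 and 2 of Nr0b1, so the distances of these genes depend on it.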

How the data were processed

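RNA of 6 libraries in 2 groups of 3, by their titles, was sequenced after a stranded poly(A) preparation, per the labels' protocols. The authors deposited raw read counts per gene, unstranded and by strand, made with STAR on mm10, per the submitters' processing notes; the sources used here give neither versions nor annotation. Multimapped reads are left out. Counts on the strand opposite to the first read were used, which held 96.2% to 96.3% of stranded gene reads. Entries that name no gene, 15.1% to 17.6% of reads, were left out. The authors also deposited a table of log2 fold changes with standard errors, from DESeq2 per the file headers.

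Names, positions and lengths came from GENCODE M21 (GRCm38), which matched 55230 of 55471 identifiers. Counts were fitted with edgeR 4.0.16 in R 4.3.3 (filterByExpr, TMM scaling, robust quasi-likelihood, group as the only term, two-sided, Benjamini-Hochberg over all genes, threshold 0.05). Standard errors (SE) are the log2 fold change over the square root of F, and their median was 0.084. On simulated counts of 14843 genes, of which 192 were changed 2-fold, 92.7% of the changed genes were recovered. The simulation gave every gene the same relative spread and changed few genes, unlike these data, so it does not give the recovery here. Libraries of 1 group exceeded counting noise in their differences (chi-square per degree of freedom 2.16 to 4.81). Intervals and limits for low counts cover counting error only.

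The 9 genes and all lists were chosen with earlier results of these data known. Other genes were named by rule: up to 4 genes past the threshold with the smallest p in each network list, the largest change in it, the rest of the 3 families, Mixl1, annotated neighbours of the 9 genes (overlapping, or starting within 5 kb on the other strand), and the 3 genes closest in profile to the gene of the 9 with the largest change. Genes named outside it are marked as named after their values were seen. A few results the rule covers are left out here. Alternatives were DESeq2 1.42.0 size factors, no filter or at least 1 CPM in 3 libraries, unstranded counts, a replicate block, each library left out, DESeq2 as the test, and the longest transcript as length.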

Additional observations from a re-analysis of the deposited data

How the results depend on the processing

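Eya1, Eya2, Eya4 and Dach1 kept their direction and stayed past the threshold under all 12 alternatives run on the counts. Their log2 fold changes were 0.97 to 1.11, 3.93 to 4.48, 0.59 to 0.98 and 1.49 to 1.74. These fits reuse the libraries with which the 9 genes were chosen, so they describe the processing and are not further evidence for a difference. Six5 stayed short of it in all 12. The number of the 9 genes past the threshold on the higher side was 4 to 5, and on the lower side 0 to 2 when 1 library was left out and 1 with DESeq2 as the test, against 2. Pax6, which did not pass under any alternative, had a log2 fold change of -0.043 with unstranded counts, and of -0.31 to 0.35 when 1 library was left out. Pax3 passed with unstranded counts and without knockout replicate 2. With a replicate block, 5 of the 9 genes were higher and 2 lower, and 4789 and 4858 of all genes, against 4684 and 4766. Libraries of equal number had correlated deviations of -0.0026, 0.046 and 0.040, and those of unequal number had -0.10 to 0.064. These values show no pairing by number, but with 3 libraries per group they cannot exclude one. No scaling moved the median of all genes by 0.1 or more. Each scaling sets typical genes near no change, so that median cannot check the scaling. For Six3, Six6 and Dach2, depth limits what can be said.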
